A study of Mus musculus with 2 samples.

Results

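The cells described here are neutrophils found in LPS-injected mouse retinas. They were chosen by their own transcripts among single retinal cells with at least 500 genes and under 25% mitochondrial UMIs (unique molecular identifiers, each standing for 1 captured RNA molecule). A cell counted as a neutrophil when at least 3 of the 7 genes Csf3r, Cxcr2, Retnlg, Il1r2, Clec4d, Mmp9 and Ly6g were detected and S100a8 plus S100a9 took at least 1% of its UMIs. It also needed under 0.1% of UMIs in 5 Müller glia genes (Rlbp1, Glul, Slc1a3, Dkk3 and Crym) and at most 1 UMI of the macrophage genes Csf1r, Ms4a7 and F13a1. This gave 249 neutrophils among 12936 cells, 120 in the knockout library and 129 in the control library. The level of these genes is what chose the cells and is given as a description only.

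The knockout retinas came from GLAST-CreER; Atg5fl/fl mice that had been given 4-hydroxy-tamoxifen, and the control retinas came from Atg5fl/fl mice for which neither Cre nor that drug is listed. Both had LPS (lipopolysaccharide, a bacterial cell wall component) placed in the vitreous in PBS at 0.5 µg per eye. Each group was 1 library made from 6 pooled retinas. Genotype, Cre and drug therefore cannot be told apart, no difference has a replicate check, and all intervals below are 95% intervals that cover counting error only. GLAST-CreER is a tamoxifen-driven Cre of Müller glia, the supporting glia of the retina, and is not a neutrophil driver. The sources used here give no sex, age or delay after injection.

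Neutrophils are short-lived phagocytes that mature in the bone marrow and leave the blood for inflamed tissue along gradients of chemokines such as CXCL1 and CXCL2, which CXCR2 reads. They carry their antimicrobial proteins in granules made in sequence during maturation, so the transcripts of early granule proteins fade before the cells leave the marrow. In tissue they make interleukin-1, chemokines and other signals themselves. A healthy retina holds very few of them, and LPS in the vitreous is a standard way to bring them in.

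The knockout library held 50676223 UMIs in 5229 barcodes and the control library 43669961 UMIs in 8690 barcodes, and the median depth of the cells kept was 6808 UMIs in the knockout and 1396 in the control library. Neutrophils did not share this gap. They had a median of 7651 UMIs and 1676 genes in the knockout library, against 7851 UMIs and 1915 genes in the control library. Of the 15 cell barcodes that occurred in both libraries, 3 belonged to a neutrophil of one library and none to a neutrophil of both.

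Neutrophils made up 120 of 4662 knockout cells, or 2.57% (exact binomial interval 2.14 to 3.07), against 129 of 8274 control cells, or 1.56% (1.30 to 1.85). The numbers of cells were close, and the shares rest on how many other cells each library held. Rods alone, taken as cells with at least 2% of UMIs in 8 rod genes, numbered 450 in the knockout and 2466 in the control library. At 5%, the cut first planned, they numbered 43 in the knockout and 9 in the control library. The order of these counts thus depended on the cut. Without the limit on macrophage UMIs the shares were 3.39% in the knockout and 2.31% in the control library, and with 0 such UMIs allowed they were 1.93% in the knockout and 1.06% in the control library. With at least 800 genes required of every cell, the control share rose to 2.30%, inside the knockout interval given above. The knockout share also stayed within that interval, whereas the control share left its own when shallow cells were dropped. What part of the gap shallow cells made up was not tested. A larger share of neutrophils and a poorer recovery of other cells cannot be told apart.

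The rule worked in steps. At least 3 of the 7 genes were detected in 184 knockout and 243 control cells, the S100 minimum left 161 knockout and 192 control cells, the Müller glia limit left 158 knockout and 191 control cells, and the macrophage limit left 120 knockout and 129 control cells. All 7 genes were detected in 22 knockout and 13 control neutrophils, and only 3 in 14 knockout and 15 control neutrophils. Just inside the S100 minimum, at 1 to 2% of UMIs, lay 2 knockout and 15 control neutrophils. Just outside it, at 0.5 to 1% and meeting the other criteria, lay 5 knockout and 7 control cells.

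The genes of the rule are given first, as a description of what was selected. S100a8 and S100a9 (neighbours at chr3:90668978-90670035 and chr3:90692632-90695721, mm10), the subunits of the calcium-binding protein calprotectin, were the most abundant transcripts along with Fth1, the ferritin heavy chain. S100a9 stood at 81951 CPM (counts of the gene per 1e6 UMIs of the class, the unit of all levels below) in knockout and 64880 CPM in control neutrophils, and S100a8 at 72664 CPM in knockout and 56910 CPM in control neutrophils. Each UMI marks the 3′ end of 1 molecule, so CPM carries no factor for transcript length. In the same libraries S100a9 reached only 50.1 CPM in knockout and 47.5 CPM in control monocyte and macrophage cells (36 knockout and 66 control cells). Neutrophils held 72.0% of all S100a9 UMIs of the knockout library and 62.0% of those of the control library.

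The other genes of the rule are described in the same way. Csf3r, the receptor of the growth factor G-CSF, stood at 753 CPM in knockout and 945 CPM in control neutrophils, against 68.6 CPM in knockout and 75.0 CPM in control monocyte and macrophage cells. Cxcr2 stood at 285 CPM in knockout and 278 CPM in control neutrophils and had no UMI in monocyte and macrophage cells of either library. Those cells were admitted only with fewer of the 7 genes than a neutrophil needs, so their low levels were partly fixed in advance. Retnlg, which encodes the secreted resistin-like gamma, was the one gene of the rule past 1.5-fold, with 2131 CPM in knockout and 1092 CPM in control neutrophils. Its ratio of knockout over control was 1.95 (1.82 to 2.10). Ly6g, the classical surface marker, was sparse at 81.7 CPM in knockout and 61.8 CPM in control neutrophils and was seen in 34 of 120 knockout and 21 of 129 control cells.

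**Figure D1:**
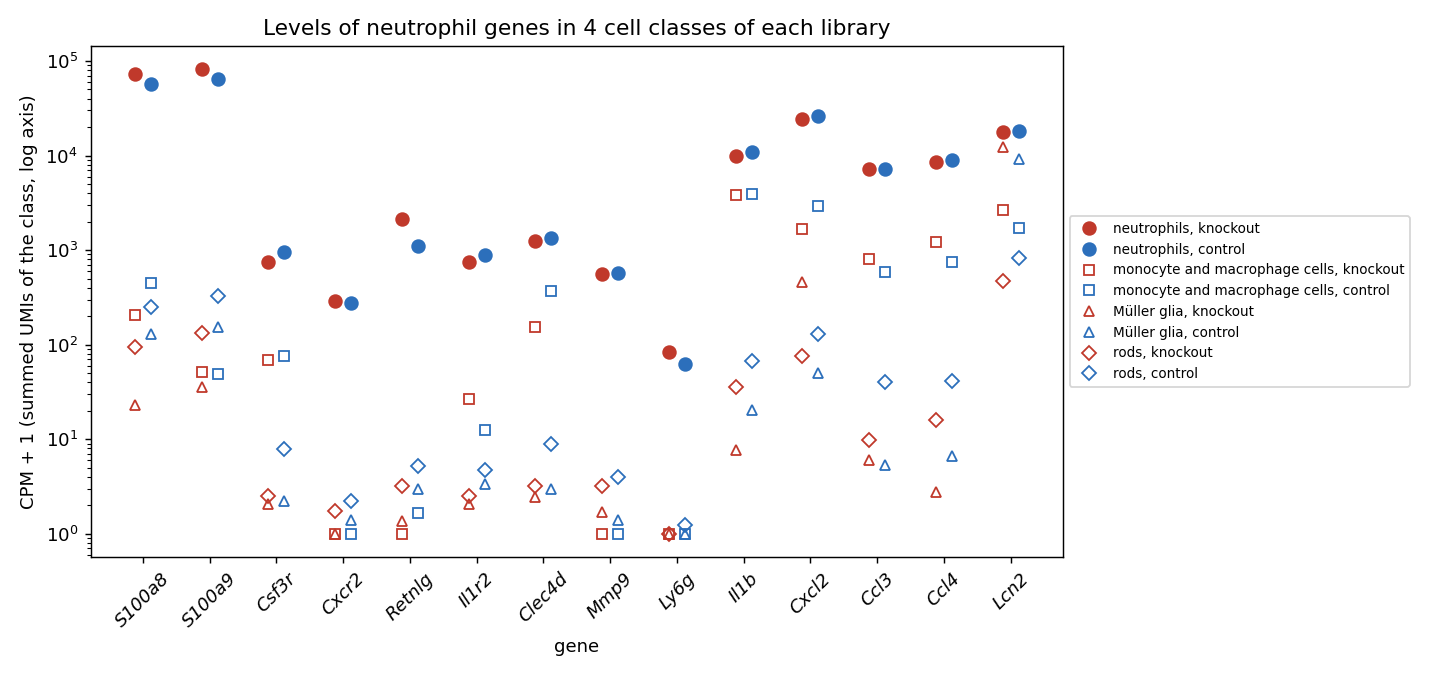
Summed level of 14 genes (CPM + 1, log axis) in neutrophils (filled circles), monocyte and macrophage cells (squares), Müller glia (triangles) and rods (diamonds), with the knockout library in red on the left and the control library in blue on the right of each gene; 1 point per library and class, no error shown. The 9 genes of the rule, from S100a8 to Ly6g, stand above the other classes, whereas Lcn2 in Müller glia comes close to its level in neutrophils. The other classes admitted only cells with fewer of the 7 counted genes than a neutrophil needs, so this gap was partly fixed in advance. Clec4d stood at 1239 CPM in knockout and 1348 CPM in control neutrophils. In monocyte and macrophage cells it stood at 152 CPM in the knockout and 368 CPM in the control library.

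UMIs of one class's genes were also found in the others. After each cell was thinned to 1000 UMIs, S100a9 was still seen in 13.6% of knockout and 25.8% of control rods, which do not express it, beside 100% of neutrophils in both libraries. The thinned set left out 1 knockout neutrophil, and 53 knockout and 801 control rods. The median depths before thinning were 7651 and 7851 UMIs in knockout and control neutrophils and 3006.5 and 1167.5 UMIs in knockout and control rods. Conversely, the 10 rod marker genes summed to 821 CPM in knockout and 2914 CPM in control neutrophils, and no UMI of the 8 rod genes was found in 22 knockout and 0 control neutrophils. This level differed between the libraries, so counts are also given below for the neutrophils with at most 0.1% of UMIs in rod genes, 109 in the knockout and 39 in the control library.

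Markers of other blood cells differed in level. Of 14 monocyte and macrophage markers, 8 were at 0 UMIs in knockout and 7 in control neutrophils, among them C1qa, C1qb, C1qc, Ms4a7, Ccr2 and Mrc1 in both. Their summed level was 81.7 CPM in knockout and 153 CPM in control neutrophils, with single cells between 0 and 1499 CPM in the knockout and 0 and 1077 CPM in the control library. The rule itself limited Csf1r, Ms4a7 and F13a1. The largest part of that sum was Adgre1, the gene of F4/80, with 36 UMIs in 18 knockout and 106 UMIs in 48 control neutrophils. The 14 T, NK and B cell markers gave 3 UMIs in knockout and 2 in control neutrophils, and the 11 mast cell, basophil and eosinophil markers gave 2 UMIs in knockout and 3 in control neutrophils. The 7 erythroid markers gave 103 UMIs in knockout and 11 in control neutrophils, mostly Hbb-bs. No doublet caller was run; the limits on Müller glia and macrophage UMIs removed mixed cells of those kinds only.

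Atg5, the floxed gene, encodes a protein needed to form autophagosomes. In neutrophils it had 12 UMIs in the knockout and 22 in the control library, or 12.4 CPM (6.41 to 21.7) in knockout and 19.7 CPM (12.3 to 29.8) in control neutrophils, with a ratio of 0.63 (0.28 to 1.33). In Müller glia it stood at 15.7 CPM in the knockout and 18.3 CPM in the control library. The libraries read the 3′ end of transcripts, and the labels do not say which exon is floxed, so these levels do not check the deletion.

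Over all genes, 3938 reached a total of 50 UMIs in the neutrophils of both libraries together, the minimum used for every count of genes below. Of these, 254 (6.45%) were at least 1.5-fold higher and 719 (18.3%) at least 1.5-fold lower in knockout neutrophils, and the median log2 ratio was -0.13. The excess of lower genes depended on the scaling. TMM scaling, which adds 0.18 to every log2 ratio and brings the median of all genes to 0.05, gave 431 higher and 486 lower genes, so that 47.0% of the calls were higher in place of 26.1%. Among the 109 knockout and 39 control neutrophils with little rod RNA, 265 genes were higher and 244 lower. Shares of a gene list are read below against 6.45% and 18.3%, and its median against that of all genes.

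**Figure D2:**
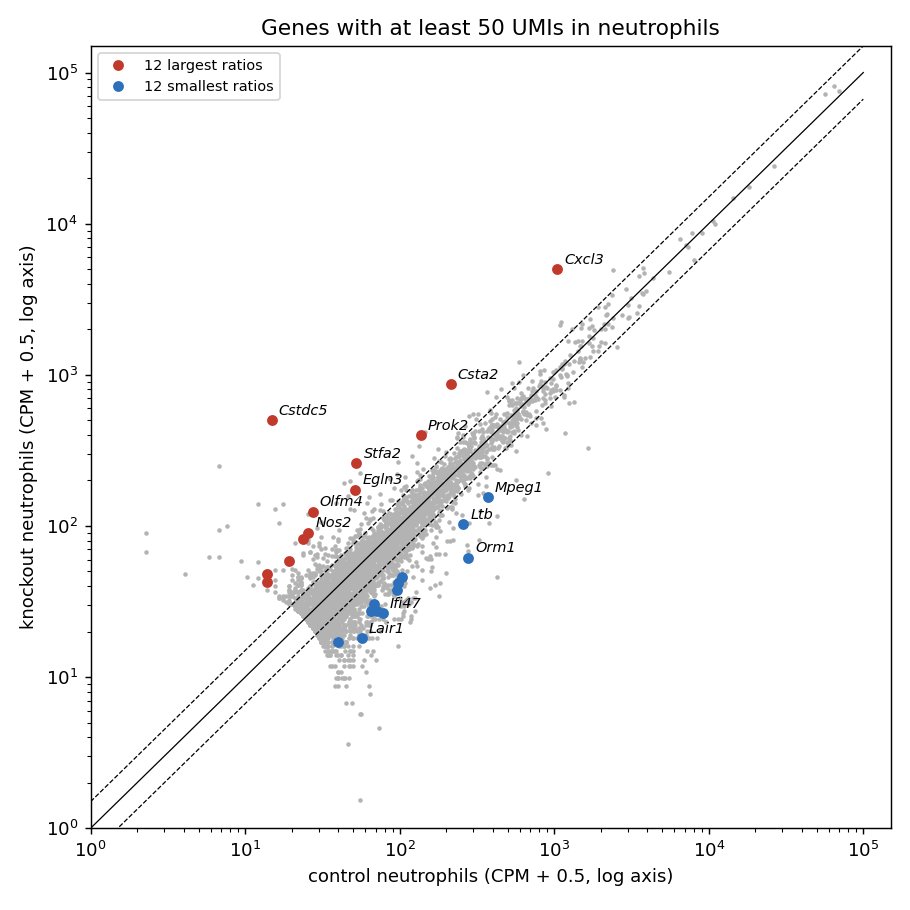
Level of each gene with at least 50 UMIs in knockout (vertical) and control (horizontal) neutrophils, as CPM + 0.5 on log axes; the solid line marks equal levels, the dashed lines 1.5-fold, and coloured points the 12 largest (red) and 12 smallest (blue) ratios chosen by the naming rule. Cxcl3 lies far off the line at a high level, while most genes with large ratios are below 1000 CPM in both libraries.

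Of 33 autophagy genes, 21 reached the minimum. None was at least 1.5-fold higher in knockout neutrophils and 2 (9.5%) were at least 1.5-fold lower, a smaller share than the 18.3% over all genes. The median log2 ratio was -0.12, beside -0.13 for all genes. The lower genes were Sqstm1, the cargo receptor p62, at 210 CPM in knockout and 362 CPM in control neutrophils (ratio 0.580, 0.488 to 0.689), and Tfeb, a transcription factor of lysosomal genes, at 18.6 CPM in knockout and 39.4 CPM in control neutrophils. The ratio of Sqstm1 ran from 0.446 to 0.739 over 23 other settings. The highest of the list, Gabarap and Map1lc3b, which encode proteins that coat the autophagosome, differed little, with 880 CPM and 433 CPM in knockout against 954 CPM and 467 CPM in control neutrophils.

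Chemokines and cytokines made by the neutrophils themselves were abundant in both libraries, and 10 of 17 measured were within 1.5-fold. Cxcl2, a ligand of CXCR2, stood at 24241 CPM in knockout and 26423 CPM in control neutrophils. Ccl4 and Ccl3, which attract monocytes and lymphocytes, stood at 8622 CPM and 7185 CPM in knockout and 9013 CPM and 7142 CPM in control neutrophils. Il1b, the precursor of interleukin-1β, stood at 9982 CPM in knockout and 10966 CPM in control neutrophils and was found in every neutrophil of both libraries. Neutrophils, few as they were, held 47.8% of the Cxcl2 UMIs of the knockout library and 47.5% of those of the control library. They held 59.2% of the Ccl3 UMIs in the knockout and 49.0% in the control library, and 43.3% of the Il1b UMIs in the knockout and 38.3% in the control library.

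Cxcl3 (chr5:90786103-90789600, mm10), a paralog of Cxcl2 in the same cluster, had the largest ratio of the chemokine and cytokine genes measured. It stood at 4976 CPM in knockout and 1045 CPM in control neutrophils, a ratio of 4.76 (4.46 to 5.08). Cells with a UMI numbered 81 of 120 in the knockout and 61 of 129 in the control library. After thinning these were 59.7% of knockout and 29.5% of control neutrophils, beside 1.26% of knockout and 0.781% of control rods. The 5 cells with most Cxcl3 held 29.3% of its UMIs in knockout and 33.3% in control neutrophils, and the ratio stayed between 3.82 and 5.38 over the other settings. In monocyte and macrophage cells the order was the other way round, with 924 CPM in the knockout and 1444 CPM in the control library. Neutrophils held 65.8% of the library's Cxcl3 UMIs in the knockout and 26.7% in the control library.

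The start regions of Cxcl3 and Cxcl2 are shown because these 2 genes of one cluster had different ratios and both carry a match to the NF-κB motif. Each run is the 120 bases before the gene's start from RefSeq (GRCm38.p6), with the match to the motif (GGGA, any base, TT, any base, CC) in capitals, and lies at chr5:90785981-90786100 (plus strand) for Cxcl3 and chr5:90903779-90903898 (plus strand) for Cxcl2.
Cxcl3: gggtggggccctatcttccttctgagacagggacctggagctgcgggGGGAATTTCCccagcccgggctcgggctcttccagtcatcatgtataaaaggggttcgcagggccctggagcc
Cxcl2: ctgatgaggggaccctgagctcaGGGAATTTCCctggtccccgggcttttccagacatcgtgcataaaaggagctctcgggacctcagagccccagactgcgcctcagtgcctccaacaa
Over windows of the same kind with 250 bases before the start, both strands searched, the motif occurred in 0.98% of 32851 promoters. It occurred in 6 of the 20 genes (30.0%) of the chemokine and cytokine list that had a promoter. A gene counted if any of its promoters matched, so this share and that of all promoters differ in unit. A match describes the letters and does not show binding.

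Of 33 chemokine and cytokine genes, 17 had enough UMIs, and 3 (17.6%) were higher and 4 (23.5%) lower in knockout neutrophils. Over all genes these shares were 6.45% and 18.3%. The other higher genes were Ccl6, at 809 CPM in knockout and 453 CPM in control neutrophils (ratio 1.78, or 1.26 among cells with little rod RNA), and Ccl9, whose UMIs came from 8 knockout and 7 control cells only. Lower were Tnf, Csf1, Cxcl10 and Il12a. Tnf, the gene of tumour necrosis factor, stood at 234 CPM in knockout and 442 CPM in control neutrophils (ratio 0.528, 0.449 to 0.620), and its ratio ran from 0.367 to 0.740 over the other settings. It was within 1.5-fold under 4 of them, among them a minimum of 2% of UMIs in S100a8 and S100a9 (0.724). Cxcl10, an interferon-induced chemokine, came from 16 knockout and 13 control cells and stood at 122 CPM in knockout and 232 CPM in control neutrophils. Csf3, which encodes G-CSF, stood at 697 CPM in knockout and 578 CPM in control neutrophils.

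**Figure D3:**
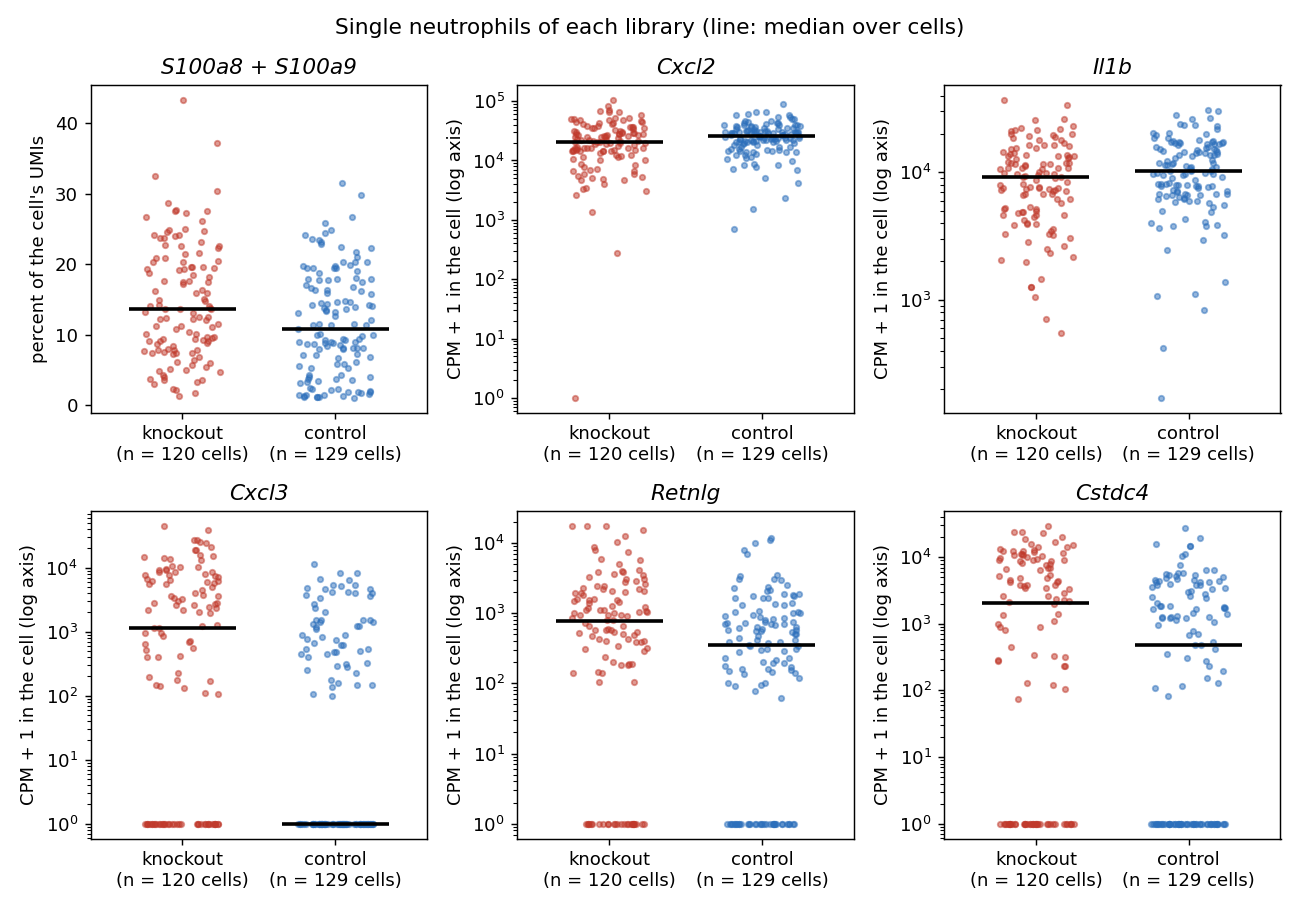
Values of single neutrophils, 120 from the knockout library (red, left) and 129 from the control library (blue, right): the percent of UMIs in S100a8 plus S100a9, and CPM + 1 on a log axis for 5 genes; each point is 1 cell and the black line is the median over cells, which are not replicates. Cxcl2 and Il1b overlap almost fully, while Cxcl3 has a group of cells at 0 in both libraries and reaches higher in the knockout library.

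In the interleukin-1 and inflammasome list, 1 of 13 members was higher and none lower. Il1rn, the secreted antagonist of the interleukin-1 receptor, stood at 3574 CPM in knockout and 3899 CPM in control neutrophils. Il1r2, a decoy receptor used in the rule, stood at 745 CPM in knockout and 878 CPM in control neutrophils. Nlrp3, a sensor that starts inflammasome assembly, stood at 697 CPM in knockout and 941 CPM in control neutrophils (ratio 0.741, 0.671 to 0.817), within 1.5-fold. Gsdmd, the pore-forming gasdermin D, was the higher member at 40.3 CPM in knockout and 22.4 CPM in control neutrophils (ratio 1.80, 1.06 to 3.11). Its ratio was 1.23 without the macrophage limit.

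Among the functional lists the stefins had the largest median ratio. Stefins are small cytosolic inhibitors of cysteine cathepsins, and in mice a cluster of near-identical copies lies on chromosome 16. Of 10 measured members of the stefin and cystatin list, 8 were at least 1.5-fold higher and none lower in knockout neutrophils, and the median log2 ratio was 1.03. All 8 belong to that cluster. Reads of near-identical copies may be split among them by the authors' counting, so the single genes are uncertain.

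The most abundant copy, Cstdc4, stood at 4955 CPM in knockout and 2406 CPM in control neutrophils, a ratio of 2.06 (1.96 to 2.16). Stfa2l1 stood at 2223 CPM in knockout and 1102 CPM in control neutrophils (ratio 2.02, 1.88 to 2.17). Csta2 stood at 867 CPM in knockout and 213 CPM in control neutrophils (ratio 4.07), and Stfa1 at 416 CPM in knockout and 146 CPM in control neutrophils (ratio 2.85). Not all copies were particular to neutrophils: Csta2 reached 362 CPM in control monocyte and macrophage cells, against 33.8 CPM in those of the knockout library, while Stfa2l1 had 0 CPM in knockout and 0.67 CPM in control monocyte and macrophage cells.

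The share of cells with a stefin UMI differed between copies. A UMI of any of the 10 stefin genes of the cluster was found in 91 of 120 knockout neutrophils (75.8%, 67.2 to 83.2) and in 95 of 129 control neutrophils (73.6%, 65.2 to 81.0). Csta2 was seen in 39 knockout and 23 control neutrophils, or after thinning in 21.0% of knockout and 7.75% of control neutrophils, beside 0% of knockout and 0.12% of control rods. Cstdc4, after thinning, was seen in 55.5% of knockout and 47.3% of control neutrophils, beside 0.756% of knockout and 0.901% of control rods. The 10 cells with most held 41.0% of these UMIs in the knockout and 41.3% in the control library. The largest ratio of all named genes was that of Cstdc5 (chr16:36359382-36367748, mm10), with 484 UMIs in knockout and 16 in control neutrophils (501 CPM in knockout and 14.3 CPM in control neutrophils, ratio 34.9, 21.3 to 61.6), but 197 of the 484 came from 1 cell and 14 knockout cells held them all. The ratio of Cstdc5 ran from 9.03 to 100.5 over the other settings. Without the 5 cells holding most of each gene, 4 of 6 measured list members were at least 1.5-fold higher and 1 was lower. Among cells with little rod RNA 6 of 10 were higher, with Stfa3 then at a ratio of 0.815. Counted over all genes, 118 were higher without the top cells and 265 among cells with little rod RNA, in place of 254.

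The inhibitors outside the cluster were within 1.5-fold. Cstb, the ubiquitous stefin B, stood at 1111 CPM in knockout and 1129 CPM in control neutrophils. Cst3, the secreted cystatin C, stood at 260 CPM in knockout and 377 CPM in control neutrophils (ratio 0.688, 0.586 to 0.807). Its ratio ran from 0.636 to 0.964 over the other settings, past 1.5-fold at the lowest.

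Genes of glycolysis and of the hypoxia response were the next list. Neutrophils draw most of their energy from glycolysis, and HIF-1, the factor stabilised at low oxygen, raises glucose uptake and glycolytic enzymes. Of 29 measured members, 12 (41.4%) were at least 1.5-fold higher and none lower in knockout neutrophils, with a median log2 ratio of 0.37. Under TMM scaling 14 were higher, and among cells with little rod RNA 11 of 26 were. The higher genes over all genes numbered 431 under TMM scaling and 265 among cells with little rod RNA, in place of 254. Thinning each cell to 1000 UMIs left 13 members measured, of which 3 were higher. Müller glia markers summed to 555 CPM in knockout and 346 CPM in control neutrophils. Of the 3 measured, only Vim was higher and none lower, with a median log2 ratio of 0.001. The median mitochondrial share was 1.07% in knockout and 0.593% in control neutrophils. The part of these marker and mitochondrial differences in the result was not tested.

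The enzymes themselves spanned a range of levels. Gapdh stood at 2007 CPM in knockout and 1310 CPM in control neutrophils, a ratio of 1.53 (1.43 to 1.64) that lies at the line and was below it under 6 other settings. Ldha, the lactate dehydrogenase subunit, stood at 532 CPM in knockout and 279 CPM in control neutrophils (ratio 1.91, 1.65 to 2.20), and stayed between 1.61 and 2.42 over the other settings. Pgam1 (546 CPM in knockout and 321 CPM in control neutrophils) and Tpi1 (390 CPM in knockout and 233 CPM in control neutrophils) had ratios of 1.70 and 1.67, and of 1.30 and 1.14 after thinning. Gpi1, Pfkp and Hk3 were also past the line at ratios of 1.51, 1.52 and 1.75. The first 2 were within 1.5-fold under 4 other settings each (down to 1.38 for Gpi1 and 1.35 for Pfkp), and Hk3 was at 4.55 after thinning. Aldoa, at 841 CPM in knockout and 796 CPM in control neutrophils, and Pkm, at 779 CPM in knockout and 717 CPM in control neutrophils, were not.

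Genes of glucose transport and of the oxygen response past the line were Slc2a1, Egln3, Ero1l, Hilpda and Bnip3. Slc2a1, the glucose transporter GLUT1, stood at 209 CPM in knockout and 108 CPM in control neutrophils (ratio 1.93, 1.53 to 2.44), although its ratio was 1.34 without the macrophage limit. Egln3, a prolyl hydroxylase that marks HIF for degradation, stood at 174 CPM in knockout and 51.1 CPM in control neutrophils (ratio 3.40, 2.51 to 4.68). Ero1l, an oxidase of the endoplasmic reticulum, stood at 264 CPM in knockout and 96.7 CPM in control neutrophils (ratio 2.73, 2.17 to 3.45). Hilpda, a protein of lipid droplets, stood at 775 CPM in knockout and 366 CPM in control neutrophils (ratio 2.11, 1.87 to 2.39), with 1.48 among cells with little rod RNA. Bnip3, a mitochondrial receptor for mitophagy, stood at 177 CPM in knockout and 91.4 CPM in control neutrophils (ratio 1.94, 1.51 to 2.50), with 1.47 where 0 macrophage UMIs were allowed. Hif1a itself was not past it and stood at 305 CPM in knockout and 324 CPM in control neutrophils.

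For 3 of these genes the 120 bases before the start are shown (RefSeq, GRCm38.p6), since they hold the core of the hypoxia response element, ACGTG. Capitals mark ACGTG or its reverse complement CACGT, which overlap where CACGTG is printed. The runs lie at chr7:46845684-46845803 (plus strand) for Ldha, chr7:138909507-138909626 (minus strand) for Bnip3 and chr4:119108625-119108744 (plus strand) for Slc2a1.
Ldha: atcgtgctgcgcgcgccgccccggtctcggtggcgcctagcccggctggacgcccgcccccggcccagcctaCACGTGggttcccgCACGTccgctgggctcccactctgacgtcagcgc
Bnip3: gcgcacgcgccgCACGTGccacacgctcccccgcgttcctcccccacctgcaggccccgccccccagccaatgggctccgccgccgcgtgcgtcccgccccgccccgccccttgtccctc
Slc2a1: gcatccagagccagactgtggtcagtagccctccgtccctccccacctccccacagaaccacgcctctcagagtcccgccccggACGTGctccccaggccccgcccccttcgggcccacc
In windows with 250 bases before the start, ACGTG on either strand occurred in 16.57% of 32851 promoters. Among genes with a promoter, it occurred in 7 of 11 higher members of the list (63.64%) and in 19 of 28 of all members (67.86%). A gene counted if any of its promoters matched, so these list shares differ in unit from that of all promoters. The share of genes was no higher among the higher members than over the whole list.

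**Figure D4:**
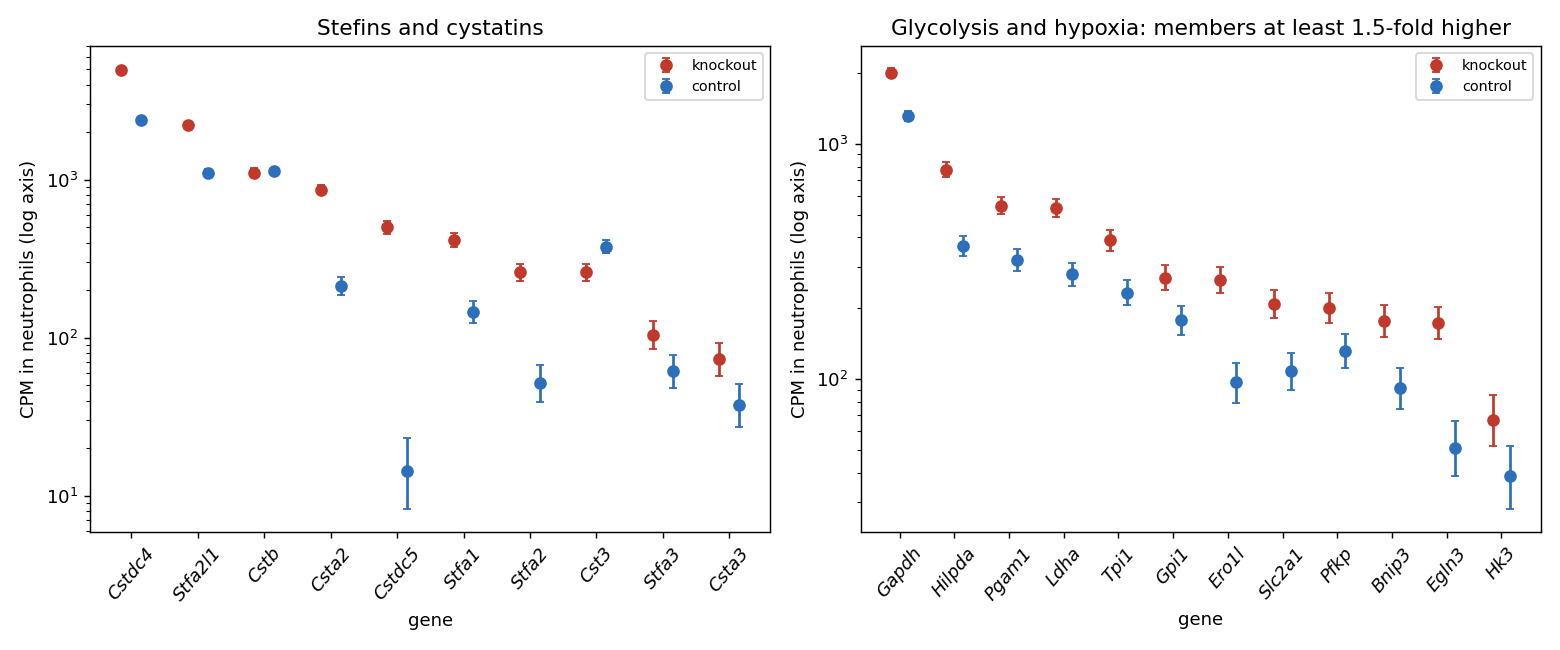
Level in knockout (red, left) and control (blue, right) neutrophils, in CPM on a log axis with exact Poisson 95% intervals of the summed UMIs, for the 10 measured stefins and cystatins and for the 12 glycolysis and hypoxia genes that were at least 1.5-fold higher. Red lies above blue for all genes but Cstb and Cst3, and the gap is widest for Cstdc5.

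Granule genes ranged from none detected to very abundant. Mpo and Elane, the myeloperoxidase and elastase of the first granules, had 0 UMIs in both. The exact Poisson upper limit was 3.82 CPM in knockout and 3.30 CPM in control neutrophils. Ltf and Camp, proteins of the secondary granules, had 11 and 11 UMIs in knockout and 11 and 10 UMIs in control neutrophils. Lcn2, the gene of the iron-trapping lipocalin 2, was at 17593 CPM in knockout and 18328 CPM in control neutrophils. Müller glia also carried Lcn2, at 12387 CPM in the knockout and 9223 CPM in the control library, and neutrophils held only 3.40% of the library's Lcn2 UMIs in the knockout and 4.23% in the control library.

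Some granule genes differed. Lyz2, lysozyme, stood at 660 CPM in knockout and 1341 CPM in control neutrophils (ratio 0.492, 0.448 to 0.540) and stayed between 0.420 and 0.613 over the other settings. Monocyte and macrophage cells held more of it, 2674 CPM in the knockout and 5239 CPM in the control library. Orm1, an acute-phase plasma protein that neutrophils also store, stood at 61.0 CPM in knockout and 276 CPM in control neutrophils (ratio 0.221, 0.164 to 0.293), and its ratio was 0.512 without the macrophage limit. Olfm4, which marks a subset of neutrophils, stood at 124 CPM in knockout and 26.9 CPM in control neutrophils (ratio 4.62), from 16 knockout and 7 control cells, with a ratio of 21.9 without the 5 top cells and 13.1 among cells with little rod RNA. Ngp, a secondary granule protein, had 65 UMIs in knockout and 29 in control neutrophils (ratio 2.59, 1.65 to 4.16), with a ratio of 1.25 without the macrophage limit. Of 4 measured primary granule genes Ctsc, which activates granule proteases, was higher and Lyz2 lower. In all, 3 of 12 secondary granule genes (25.0%) were higher and 2 (16.7%) lower, beside 6.45% and 18.3% over all genes. Of 11 genes of the later granules and secretory vesicles none was higher and 1 (9.1%), Cr1l, was lower.

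Genes of mature circulating neutrophils had 4 of 22 members (18.2%) higher (Retnlg, Stfa2l1, Ifitm6 and Padi4) and 1 (4.5%) lower (Mxd1). Over all genes these shares were 6.45% and 18.3%. The list's median log2 ratio was 0.13, and -0.16 among cells with little rod RNA. Ifitm6 stood at 709 CPM in knockout and 422 CPM in control neutrophils (ratio 1.68, 1.49 to 1.89), with 1.43 among cells with little rod RNA. Padi4, the enzyme that citrullinates histones, stood at 43.4 CPM in knockout and 21.5 CPM in control neutrophils (ratio 2.02, 1.20 to 3.49). Cxcr4, the receptor that holds neutrophils in the marrow, stood at 125 CPM in knockout and 135 CPM in control neutrophils. Genes of tissue-activated neutrophils had 2 of 27 members (7.4%) higher, Cxcl3 and Hilpda, and 4 (14.8%) lower, Tnf, Csf1, Gadd45b and Hcar2. Their median log2 ratio was -0.14, beside -0.13 for all genes, and 0.04 under TMM scaling.

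Receptors that guide neutrophils were mostly close. Fpr1, which senses bacterial formyl peptides, stood at 1615 CPM in knockout and 1682 CPM in control neutrophils. Of 13 measured chemoattractant receptors, 2 (15.4%) were higher and 2 (15.4%) lower, beside 6.45% and 18.3% over all genes. Ltb4r1, the receptor of leukotriene B4, stood at 142 CPM in knockout and 60.9 CPM in control neutrophils (ratio 2.33, 1.73 to 3.16) and stayed between 1.99 and 3.11 over the other settings. P2ry2, a receptor for ATP, stood at 41.4 CPM in knockout and 22.4 CPM in control neutrophils (ratio 1.85, 1.09 to 3.18), with 1.49 among cells with little rod RNA. Ccrl2, a chemerin-binding receptor, stood at 1537 CPM in knockout and 2546 CPM in control neutrophils (ratio 0.604, 0.566 to 0.643), and Hcar2, a receptor of hydroxybutyrate, at 515 CPM in knockout and 826 CPM in control neutrophils (ratio 0.624). Both lower calls were lost under TMM scaling.

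Among adhesion and transmigration genes, 1 of 21 (4.8%) was higher and 2 (9.5%) lower, beside 6.45% and 18.3% over all genes. Cd44, a hyaluronan receptor and the highest of the list, stood at 2089 CPM in knockout and 1755 CPM in control neutrophils. Cd177, a partner of β2 integrins, stood at 48.6 CPM in knockout and 21.5 CPM in control neutrophils (ratio 2.26, 1.36 to 3.87), with 1.33 among cells with little rod RNA and 4.70 after thinning. Of 18 cytokine and growth factor receptors none was higher and 1, Il10ra, was lower. Its ratio of 0.603 was 1.05 without the macrophage limit. Icam1, which activated neutrophils display, stood at 176 CPM in knockout and 234 CPM in control neutrophils.

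Of 12 measured genes of LPS sensing none was higher and 1 lower. Cd14, the coreceptor that hands LPS to TLR4, stood at 4534 CPM in knockout and 3560 CPM in control neutrophils (ratio 1.27, 1.22 to 1.33). Tlr4 stood at 279 CPM in knockout and 227 CPM in control neutrophils. Acod1, which makes the metabolite itaconate, stood at 2553 CPM in knockout and 3455 CPM in control neutrophils (ratio 0.739, 0.702 to 0.777). The lower member was Nod2, a cytosolic sensor, with 16.5 CPM in knockout and 35.8 CPM in control neutrophils, a ratio of 0.462 that was 0.697 without the macrophage limit.

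Genes of the response to interferon gamma and of antigen presentation had the lowest median of the functional lists. Of 23 measured members none was higher and 8 (34.8%) were lower in knockout neutrophils, and the median log2 ratio was -0.39, or -0.21 under TMM scaling. The lower members were Irf1, Irgm1, Gbp2, Cxcl10, Tap2, Psmb8, Psmb9 and Cd74. Irf1, a transcription factor induced by interferon, stood at 44.5 CPM in knockout and 95.8 CPM in control neutrophils (ratio 0.464, 0.318 to 0.667). Psmb8 and Psmb9, subunits of the immunoproteasome, stood at 61.0 CPM and 36.2 CPM in knockout and at 111 CPM and 64.5 CPM in control neutrophils. Tap2, which carries peptides to class I molecules, stood at 14.5 CPM in knockout and 36.7 CPM in control neutrophils (ratio 0.394, 0.199 to 0.738).

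The abundant class I genes did not share this. B2m, the light chain of class I molecules, stood at 1757 CPM in knockout and 1784 CPM in control neutrophils, and H2-D1 at 1544 CPM in knockout and 1756 CPM in control neutrophils. Under TMM scaling 5 members were lower and 2 higher, and among cells with little rod RNA 7 of 19 were lower. Counted over all genes, 486 were lower and 431 higher under TMM scaling, and 244 were lower among cells with little rod RNA. Thinning to 1000 UMIs left 5 members measured, of which none was lower. The ratios of Tap2 and Cxcl10 stayed past 1.5-fold over the other settings, and those of the other 6 did not. The monocyte and macrophage marker sum, at 81.7 CPM in knockout and 153 CPM in control neutrophils, moved in the same direction as this list; its part in the result was not tested.

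Type I interferon genes were close to all genes. Of 38 measured members, 1 (Ifitm6) was higher and 6 (15.8%) lower, with a median log2 ratio of -0.18 that was 0.00 under TMM scaling. The highest members, Ifitm2 and Ifitm3, which block the entry of viruses, stood at 3404 CPM and 3237 CPM in knockout and 3728 CPM and 3154 CPM in control neutrophils. Ifi47, an interferon-inducible GTPase, was lowest by ratio with 25.9 CPM in knockout and 77.0 CPM in control neutrophils (ratio 0.336, 0.206 to 0.529). Ifit3, Parp14, Stat2, Gbp2 and Isg15 were the others past the line. Isg15, a ubiquitin-like modifier, lay at it, with 816 CPM in knockout and 1226 CPM in control neutrophils (ratio 0.666), and was within 1.5-fold under 10 other settings.

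Of 20 genes of NF-κB and its feedback, none was higher and 2 (10.0%) were lower, with a median log2 ratio of -0.30 (-0.12 under TMM scaling). Tnfaip2 stood at 438 CPM in knockout and 887 CPM in control neutrophils (ratio 0.493, 0.439 to 0.553) and stayed between 0.403 and 0.558 over the other settings. Nfkbia, the inhibitor that NF-κB induces against itself, stood at 1542 CPM in knockout and 1945 CPM in control neutrophils (ratio 0.793, 0.742 to 0.847). Of 25 early response genes none was higher and 5 were lower (Fos, Klf2, Nr4a1, Nr4a3 and Cebpd), with a median log2 ratio of -0.26. Fos, a subunit of AP-1, stood at 713 CPM in knockout and 1159 CPM in control neutrophils (ratio 0.615, 0.560 to 0.675), but was within 1.5-fold under 4 other settings (up to 0.696). Under TMM scaling 1 early response gene was lower, and among cells with little rod RNA 7 were. The lower genes over all genes numbered 486 under TMM scaling and 244 among cells with little rod RNA, in place of 719.

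**Figure D5:**
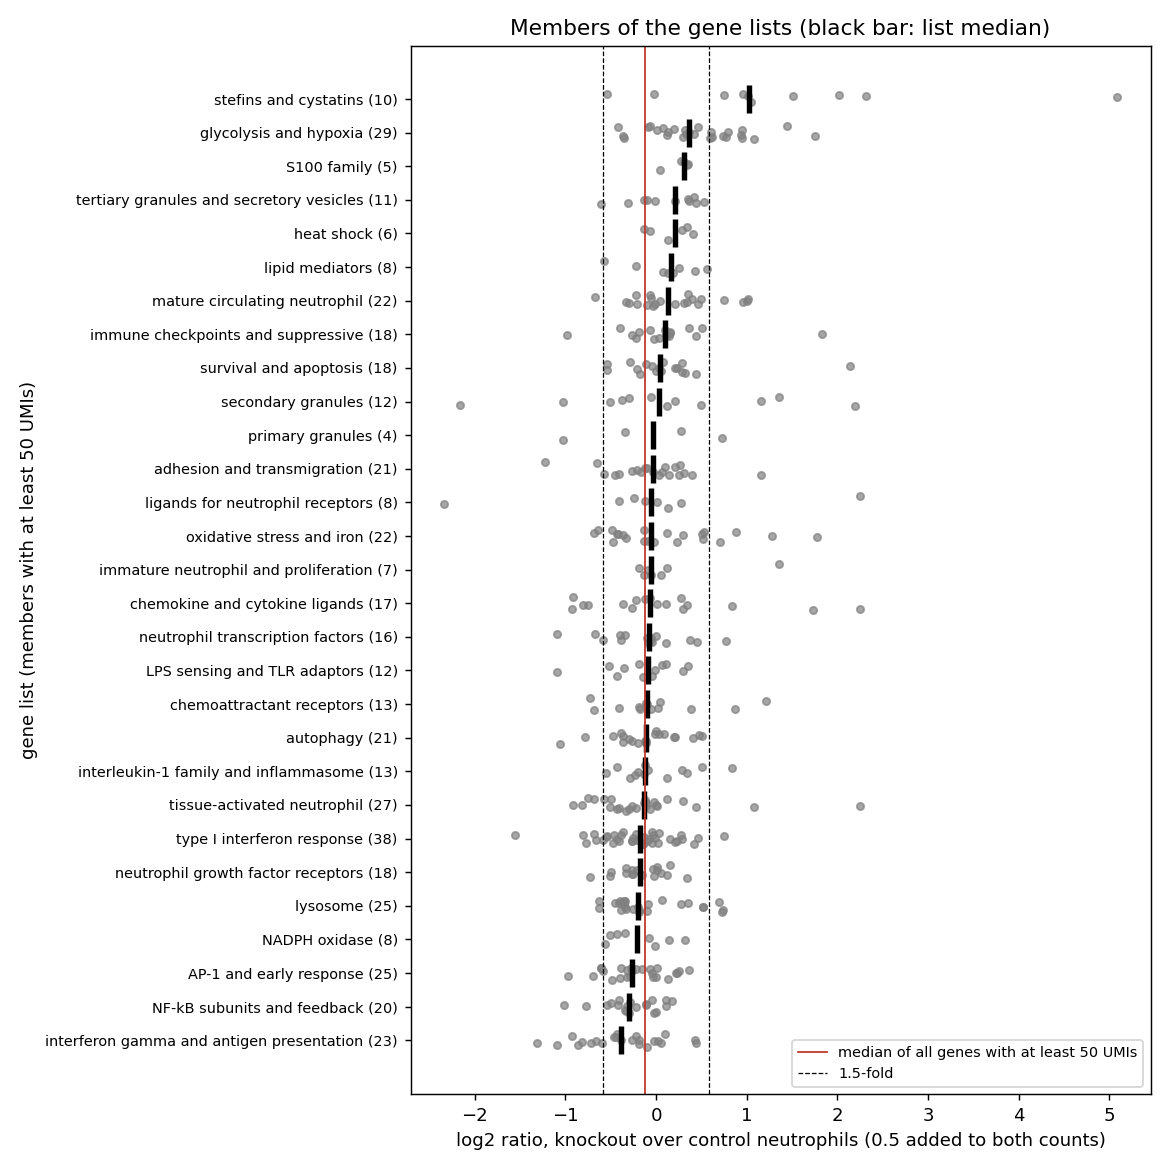
Log2 ratio of knockout over control neutrophils for each measured member (grey points) of the gene lists, with the list median as a black bar, lists sorted by median, and the number of members with at least 50 UMIs in brackets; the red line is the median of all such genes and the dashed lines mark 1.5-fold. Stefins and then glycolysis and hypoxia lie farthest to the right, and interferon gamma and antigen presentation farthest to the left.

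The oxidase that makes superoxide showed no member past the line among 8. Cyba stood at 1044 CPM in knockout and 1322 CPM in control neutrophils. Ncf1, the subunit p47phox, stood at 481 CPM in knockout and 710 CPM in control neutrophils (ratio 0.677, 0.603 to 0.760). Over the other settings the ratio of Cyba ran from 0.581 to 0.893 and that of Ncf1 from 0.539 to 0.766. Both were thus past the line at their lowest. In the oxidative stress and iron list 4 of 22 members (18.2%) were higher and 2 (9.1%) lower, beside 6.45% and 18.3% over all genes. Higher were Mt2 and Mt1, metal-binding metallothioneins, with 106 CPM and 290 CPM in knockout and 30.5 CPM and 119 CPM in control neutrophils, and Prdx6 and Srxn1. Mt2 had a ratio of 3.46 (2.33 to 5.27), and of 1.05 without the macrophage limit. Müller glia held far more Mt2, 9025 CPM in the knockout and 2833 CPM in the control library, and the part of their RNA in this ratio was not tested. With the RNA profile of rods, as defined above, taken away the ratio was 5.11, and with rods at 5% it was 11.7. Ftl1, the ferritin light chain, stood at 5735 CPM in knockout and 7972 CPM in control neutrophils (ratio 0.719, 0.696 to 0.744), whereas Fth1 stood at 75775 CPM in knockout and 69442 CPM in control neutrophils.

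Of 18 survival and apoptosis genes 1 was higher and none lower. Mcl1, the protein on which neutrophil survival depends, stood at 2009 CPM in knockout and 2005 CPM in control neutrophils. The higher gene was Cdkn1a, the cell cycle inhibitor p21, with 191 CPM in knockout and 43.0 CPM in control neutrophils (ratio 4.45, 3.22 to 6.25), seen in 53 of 120 knockout and 27 of 129 control cells; its ratio stayed between 2.82 and 5.18 over the other settings. Lysosomal genes had 3 of 25 members higher and 2 lower, lipid mediator genes 0 of 8 in either direction, and heat shock genes 0 of 6. Among 18 genes of immune checkpoints and suppression, 1 (5.6%), Nos2, was higher and 1 (5.6%), Clec4n, lower. Of 16 transcription factors 1 (6.2%), Nfil3, was higher and 3 (18.8%), Mxd1, Irf1 and Cebpd, lower, near the shares over all genes. Nos2, the inducible nitric oxide synthase, stood at 90.0 CPM in knockout and 25.1 CPM in control neutrophils (ratio 3.59, 2.32 to 5.71).

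The largest ratios by the naming rule were, after Cstdc5, those of Stfa2, Cxcl3, Olfm4, Csta2, Nos2, Acvrl1, Rhov, Egln3, Cldn1, Impa2 and Prok2. Cstdc5, Stfa2, Olfm4, Acvrl1 and Cldn1 met the minimum of 10% of cells in the knockout library alone, where they were higher. Nos2 and Acvrl1 were at least 2 times above the other cells in the knockout library alone. The place of all these genes in this order is a description and supports nothing. Prok2, a secreted prokineticin that acts on myeloid cells and vessels, stood at 397 CPM in knockout and 136 CPM in control neutrophils, but 1 cell held 117 of 384 knockout UMIs and 1 cell 106 of 152 control UMIs. Its ratio was 2.92 (2.41 to 3.54), 5.58 without the 5 top cells and 1.09 among cells with little rod RNA. Rhov, a small GTPase, was more even, with at most 5 UMIs in a cell, 81.7 CPM in knockout and 23.3 CPM in control neutrophils (ratio 3.51, 2.23 to 5.70), and a ratio between 2.31 and 4.85 over the other settings. Acvrl1 had a ratio of 3.54 and of 1.11 without the macrophage limit.

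The smallest ratios were those of Orm1, Lair1, Ifi47, Rbbp8, Adgre1, Ltb, Mpeg1, Clec4a1, Ceacam1, Stk10, Pik3cd and Metrnl. Orm1, Lair1 and Rbbp8 were at least 2 times above the other cells in the control library alone, where they were higher. Ceacam1 met the minimum of 10% of cells in the control library alone. The place of all the genes in this order is likewise a description and supports nothing. Ltb, the membrane-anchored lymphotoxin beta, was nearly absent from monocyte and macrophage cells, at 4.09 CPM in the knockout and 2.01 CPM in the control library. It stood at 102 CPM in knockout and 257 CPM in control neutrophils (ratio 0.398, 0.314 to 0.502), in 45 of 120 knockout and 89 of 129 control cells. Mpeg1, the pore-forming perforin-2, stood at 154 CPM in knockout and 372 CPM in control neutrophils (ratio 0.415, 0.341 to 0.501). The ratios of Ltb and Mpeg1 stayed between 0.332 and 0.501 and between 0.385 and 0.485 over the other settings. Lair1, Rbbp8, Adgre1, Clec4a1, Ceacam1, Stk10, Metrnl and Pik3cd were all higher in monocyte and macrophage cells than in neutrophils of both libraries, and Ceacam1 had a ratio above 1 without the macrophage limit (1.14) and among cells with little rod RNA (1.27).

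Saa3, an acute-phase protein made in tissue, stood at 329 CPM in knockout and 1665 CPM in control neutrophils, the smallest ratio of any measured list member at 0.198 (0.175 to 0.223). The ratio of Saa3 was 0.415 with 0 macrophage UMIs, 0.391 without that limit and 0.369 among cells with little rod RNA. Of the 8 measured ligands for receptors of neutrophils, it was the lower one and Cxcl3 the higher one. Saa3 was far higher in monocyte and macrophage cells, at 7315 CPM in the knockout and 9996 CPM in the control library. A single control neutrophil held 618 of the 1859 control UMIs. Xist, expressed in female cells, had 42 UMIs in knockout and 118 in control neutrophils, and Y-linked genes had 132 in knockout and 119 in control neutrophils, so both kinds of transcript were present in both libraries. Cells with Xist and no Y-linked UMI numbered 16 in the knockout and 34 in the control library. Those with a Y-linked UMI and no Xist numbered 46 in the knockout and 35 in the control library. Both kinds were found in 5 knockout and 16 control cells. Xist stood at 43.4 CPM in knockout and 106 CPM in control neutrophils, against 384 CPM in knockout and 430 CPM in control rods. What part free RNA had in these counts, and what part they had in the ratios, was not tested.

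Within each library the neutrophils differed widely. S100a8 plus S100a9 took between 1.31% and 43.4% of a cell's UMIs in the knockout library, with a median of 13.6%, and between 1.00% and 31.5% in the control library, with a median of 10.8%. At least 20% was reached by 32 knockout and 18 control cells. Over thinned cells (119 knockout and 129 control), this share had a Spearman correlation with the tissue-activated genes of -0.30 in the knockout and -0.13 in the control library. With the early response genes it was -0.35 in the knockout and -0.19 in the control library, and with the lysosomal genes -0.33 in the knockout and -0.23 in the control library. A share of UMIs that is high for one list leaves less for the others, and cells of a library share its depth and its free RNA, so these values only describe the cells.

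The correlation of the type I and gamma lists, without their shared genes, was 0.27 in the knockout and 0.42 in the control library. The stefin list varied widely between cells, with a median of 0.4% of UMIs in both libraries and a highest cell at 6.5% in the knockout and 4.5% in the control library; its upper quartile was 1.55% in knockout and 0.7% in control cells. Glycolysis and hypoxia genes took a median of 0.8% of UMIs in knockout and 0.6% in control cells, with upper quartiles of 1.3% in knockout and 0.9% in control cells.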

How the data were processed

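Dissociated retinas were run on the 10x Genomics 3′ platform, per the labels' protocols. The authors deposited raw UMI counts per gene and barcode, made with Cell Ranger 6.0.0 on mm10, per the submitters' processing notes, which also list Seurat 5.2.1. Of 32285 features, 40 repeated a symbol, and the first of each was used. Coordinates came from GENCODE M21 (mm10), and promoters from RefSeq. No cell types were used beyond the rules given, and the rules for monocyte and macrophage cells, Müller glia and rods were of the same kind. Each of these classes also left out cells with as many of the 7 neutrophil genes as a neutrophil needs. Rods needed 2% rod UMIs, a value chosen after the data were seen, because 5% left 43 knockout and 9 control cells. The members, gene lists and settings were chosen with earlier results of these data known.

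For each class of each library, counts were added up and expressed as CPM with exact Poisson intervals. Ratios have exact conditional binomial intervals, shares Clopper-Pearson ones, and log2 ratios had 0.5 added to both counts. Molecules of 1 library are not replicates, so no test was run. A gene counted as higher or lower at 1.5-fold with at least 50 UMIs over both libraries. Alternatives covered the cell rule, scaling (edgeR 4.0.16 TMM), thinning to 1000 UMIs (seed 1), top cells, free RNA and count minimums. Ratios under alternatives had 0.5 added to both counts. Doublets were not called.

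Named were the 12 largest and 12 smallest ratios among 1048 genes that, in the library where the gene was higher, were seen in at least 10% of neutrophils and at least 2 times higher than in the other cells of that library, so that a gene could pass through that library alone, outside the rule and without predicted, mitochondrial, ribosomal and haemoglobin genes; the 15 highest levels; the 2 highest and the extreme ratios of each list; and a fixed set of neutrophil genes. Further list members were chosen after their values were seen. Of the 43 lists, 13 were markers of other cells. Python 3.11.15, numpy 2.4.6, scipy 1.17.1, pandas 2.3.3 and R 4.3.3 were used, and the ratio calculation was tested on simulated data.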

Additional observations from a re-analysis of the deposited data

How the results depend on the processing

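The 254 higher genes became 431 under TMM scaling, 118 without the 5 top cells of each gene, 47 after thinning to 1000 UMIs, 97 at 2-fold, 579 at a minimum of 20 UMIs and 3184 at 1 UMI. The 719 lower genes became 1182 without the macrophage limit, 244 among cells with at most 0.1% rod UMIs, 343 with the free RNA of rods at 2% taken away, 68 after thinning, 289 at 2-fold, 1695 at 20 UMIs and 5956 at 1 UMI. The 12 higher glycolysis and hypoxia genes became 3 after thinning and 3 at 2-fold. The 8 lower interferon gamma genes became 5 under TMM scaling, 0 after thinning, 14 at 1 UMI and 2 at 2-fold. The 8 higher stefins became 4 after thinning and 4 without the top cells. Thinning and dropped cells leave fewer UMIs and so fewer genes measured; the cause of the other moves was not tested. The share of neutrophils was 1.93% in the knockout with 0 macrophage UMIs and 3.39% without that limit. In the control library it was 1.06% with 0 macrophage UMIs, 2.31% without that limit, 2.30% at 800 genes, 1.24% at 4% S100 and 0.471% at 0.1% rod UMIs. The knockout share stayed within its counting interval at 800 genes, at 4% S100 and at 0.1% rod UMIs. Ratios past 1.5-fold turned round for Cd74 (1.20), Ctsc (0.737) and Ddx3y (0.829) after thinning, for Ceacam1 (1.14) and Il10ra (1.05) without the macrophage limit, and for Ceacam1 (1.27) and Stfa3 (0.815) among cells with at most 0.1% rod UMIs. Ratios within 1.5-fold or under the count minimum crossed 1 too, among them Camp (0.511) and Ly6g (0.682) at 0.1% rod UMIs, Hk1 (1.29) with the RNA of rods at 2% taken away and Atg5 (1.08) after thinning. Counting each gene under each setting, 3175 other values lay within the main value's counting interval and 451 outside it. The settings at 20 UMIs, at 1 UMI and at 2-fold cannot move a ratio, so all their values fall within by construction. The settings without the macrophage limit, at 4% S100, at 0.1% rod UMIs and with rods at 2% were chosen after seeing the data. No paired analysis was possible because each group is 1 library, and for the same reason no library could be left out. Genes under about 50 CPM rest on few UMIs, and a 1.5-fold difference in them lies within counting error.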
